A study of Bos taurus with 20 samples.

Results

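The miRNAs described here are 7 miRNAs best known from epithelial cells, namely the 5 members of the miR-200 family (bta-miR-200a, bta-miR-200b, bta-miR-200c, bta-miR-141 and bta-miR-429), bta-miR-205 and bta-miR-375. They were chosen by name, and all 7 were found among the 1029 bovine miRNAs of the deposited table. The table covers small RNA libraries from frozen-thawed spermatozoa of 20 mature Holstein-Friesian bulls, 1 library per bull, with semen of 3 ejaculates pooled per bull. The bulls fall into a high fertility group (HF, n = 10) and a low fertility group (LF, n = 10), set by a field score of pregnancy after insemination that had been adjusted for herd, cow and season. No treatment of the bulls is given, and every semen pool was first exposed to a buffer that lyses somatic cells. The AI center of each bull is not used here, since the labels do not give it.

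miRNAs are short RNAs that bind mRNAs mainly through their seed, a short stretch near the 5′ end, and lower the translation and stability of their targets. The miR-200 family keeps epithelial cells in their epithelial state by repressing ZEB1 and ZEB2, the repressors of the E-cadherin gene CDH1, and miR-205 shares these targets. miR-375 was first described in pancreatic islets, where it restrains insulin secretion, and it is also abundant in several secretory epithelia. In the male tract, spermatozoa leave the testis and mature in the epididymis, a duct lined by epithelium. The family falls into seed groups as general background: miR-200b, miR-200c and miR-429 share a seed, and miR-200a and miR-141 share another that is closely similar. It also falls into genomic clusters. In the ARS-UCD2.0 annotation the genes of miR-429, miR-200a and miR-200b stand in a row between TTLL10 and C16H1orf159, and the genes of miR-141 and miR-200c stand next to each other beside PTPN6, a phosphatase of blood cells. The seed and the cluster therefore cut the family in different ways. The gene of miR-205 follows CAMK1G and that of miR-375 lies between CRYBA2, a lens crystallin, and CFAP65, a protein of the sperm flagellum. Mature sequences were not used here, so the seed groups are given by name.

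Reads on miRNAs were between 103204 and 3097581 per library, with a median of 1092881 in HF and 1085742 in LF. The shallowest library, HF replicate 17, stood apart in depth. It held the lowest normalized count of 20 bulls for 6 of the 7 miRNAs, all but miR-375. As a share of miRNA reads, HF replicate 2 was lower than HF replicate 17 in miR-200b (0.246% against 0.257%) and miR-429 (0.0113% against 0.0126%). In HF replicate 17 miR-200a was counted with 423 reads, miR-200b with 265, miR-429 with 13, miR-200c with 9, miR-141 with 2 and miR-205 with 0. Results that rest on this bull are therefore given with and without it. The label of spermatozoa was set against miRNA lists. All 6 miRNAs of a male germ cell list passed the filter on low values, led by miR-34c at a mean normalized count of 35782, rank 5 of 1029. The summed level of that list lay between 32158 and 77257 in HF and between 25856 and 54756 in LF. The summed level of 8 blood and immune miRNAs lay between 101 and 289 in HF and between 92.3 and 322 in LF, and that of 11 stromal, endothelial and muscle miRNAs between 193 and 2021 in HF and between 278 and 2428 in LF. Of these, 7 of the 8 blood and immune miRNAs and 8 of the 11 stromal, endothelial and muscle miRNAs passed the filter. None of the list miRNAs was at 0 in all libraries. The 4 that failed the filter were at 0 in 15 (miR-144), 14 (miR-133b), 11 (miR-214) and 8 (miR-145) of the 20.

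Levels are given as normalized counts, which are reads scaled to the total on miRNAs and to a TMM factor of the library. All 7 miRNAs passed the filter on low values. They spanned a wide range of levels, from miR-375, the 15th most abundant miRNA of the table, to miR-205 at rank 242. miR-375 had a mean normalized count of 10608 ± 1986 (SD, n = 20 bulls) and made up 1.06% of the miRNA reads. miR-200a followed at 6567 ± 1275 (rank 21) and miR-200b at 4118 ± 907 (rank 34). A wide step then separated these from miR-200c at 356 ± 110 (rank 98), miR-429 at 215 ± 59.7 (rank 113), miR-141 at 68.7 ± 27.2 (rank 180) and miR-205 at 23.6 ± 27.8. The most abundant miRNAs were also those that varied least between bulls.

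**Figure D1:**
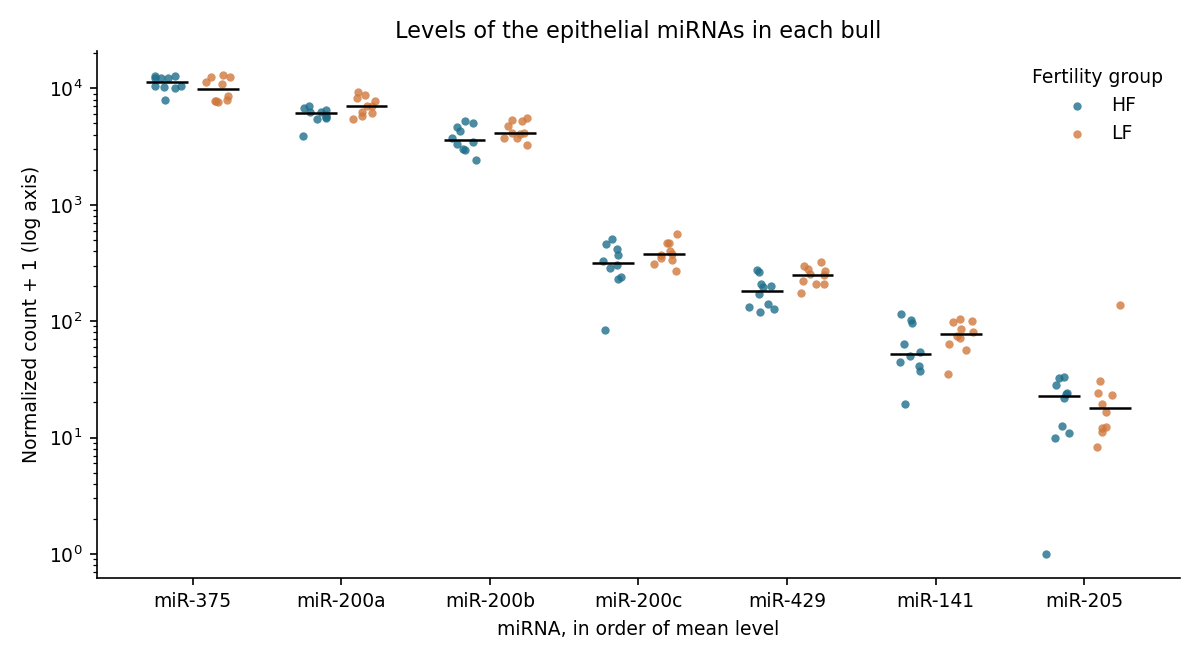
Normalized count plus 1 (log axis) of each miRNA in each of the 20 bulls, in order of mean level, with HF in blue, LF in orange and the group median as a black bar. The 3 abundant miRNAs lie in a narrow band in every bull, while the normalized count of miR-205 runs from 0 in HF replicate 17 to 136 in LF replicate 18.

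Neighbours in this order kept their places in most bulls. miR-375 was above miR-200a in 19 of 20 bulls, with a mean difference within a bull of 0.69 ± 0.43 (SD) in log2(normalized count + 1), the scale used for these steps. The exception was LF replicate 8, where miR-200a was highest of all at 9340 and miR-375 was at 8636. miR-200a was above miR-200b in 20 of 20 bulls by 0.68 ± 0.20 on the log2 scale, and miR-200b above miR-200c in 20 of 20 by 3.58 ± 0.45. miR-200c was above miR-429 in 18 of 20 bulls, at a log2 difference of 0.69 ± 0.43. miR-429 was above miR-141 in 20 of 20 at 1.70 ± 0.45, and miR-141 above miR-205 in 19 of 20 at 1.89 ± 1.09. The whole order of the means was found in 16 of 20 bulls, and the exceptions were HF replicate 17 and LF replicates 8, 11 and 18. Reads are set by capture and ligation as well as by amount, so these steps compare library levels.

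The spread between bulls can be read against counting error. The coefficient of variation of miR-200a over the 20 bulls was 19.4%, where the reads behind it allow a counting error of 1.66%. For miR-375 the values were 18.7% and 1.22%, and for miR-200b 22.03% and 2.12%. In miR-141 the spread of 39.6% stood beside a counting error of 20.0%, the closest of the 7. miR-205 had a median of 18 reads per library, a spread of 118% and a counting error of 25.2% in the libraries with a read. Its value of 0 in HF replicate 17 allows up to 3 reads, a normalized count of 27.6, which is above the mean of the 20 bulls. Such limits hold for counting error alone, because copies made by PCR do not count separate molecules.

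The study was designed to compare sperm RNA between HF and LF bulls. All 5 members of the miR-200 family had a lower mean in HF than in LF bulls, miR-205 was also lower, and miR-375 was higher. A negative log2 fold change of HF over LF was found in 49.9% of the 435 miRNAs that passed the filter. The differences of the family were small, between -0.47 and -0.23 on the log2 scale, and 2 of the 5 had an unadjusted p-value under 0.05 from limma, miR-429 and miR-200a. Both were lower in HF, as were 1.84% of all tested miRNAs at that p-value. A miRNA was called where its unadjusted p-value was under 0.05 and its fold change exceeded 1.5, the cut-offs of the study taken here as unadjusted. None of the 7 met both criteria, which 2.07% of all tested miRNAs did (9 of 435). After Benjamini-Hochberg adjustment over the 435 miRNAs, limma gave adjusted p-values of 0.94 to 0.96 for the 7, and the smallest over all miRNAs was 0.92. The median log2 fold change of the 7 was -0.39, beside 0.01 over all tested miRNAs. Fewer cells of a type and less RNA per cell cannot be told apart in such libraries.

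miR-429, from the cluster of miR-200a and miR-200b, had the third smallest p-value of the 435. Its normalized count ran from 119 through a median of 182 to 276 in HF, and from 173 through a median of 250 to 322 in LF. The groups overlapped, but 5 of 10 HF bulls were below the lowest LF bull and 3 of 10 LF bulls above the highest HF bull. Over the 10 bulls of each group the mean and SD were 182 ± 55.6 for HF and 247 ± 45.9 for LF. On the log2 scale HF differed from LF by -0.47 ± 0.18 (standard error), with p = 0.0135 and adjusted p = 0.94 from limma, which is 1.39-fold higher in LF. In the 20 fits that left out 1 bull each, the difference in miR-429 lay between -0.54 and -0.41, the weakest without HF replicate 17, with unadjusted p-values of 0.0045 to 0.029.

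miR-200a, the most abundant member of the family, ran from 3888 through a median of 6089 to 7048 in HF and from 5462 through a median of 7054 to 9340 in LF. Every one of the 10 HF bulls lay under the median of LF, and 5 of 10 LF bulls were above the highest HF bull. Its mean was 5930 ± 896 in HF and 7205 ± 1314 in LF, a log2 difference of -0.28 ± 0.13 (standard error), for which limma gave p = 0.040 and adjusted p = 0.94. With HF replicate 17 left out, HF differed from LF by -0.21 with an unadjusted p-value of 0.088, so its side of 0.05 depended on that bull. Across the fits that left out 1 bull each, the p-value was under 0.05 in 10 of 20.

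miR-200b, which shares the cluster of miR-200a and the seed of miR-429, ran from 2436 through 3578 to 5272 in HF and from 3246 through 4160 to 5570 in LF. Its groups overlapped over most of their range, and 6 of 10 HF bulls lay under the median of LF. HF differed from LF by -0.23 ± 0.15 (standard error) on the log2 scale, with p = 0.14 from limma, and by -0.16 without HF replicate 17. In miR-200c, of the other cluster, HF ran from 82.7 through 314 to 504 and LF from 269 through 374.9 to 564. Here HF differed from LF by -0.39 ± 0.24 (p = 0.12 from limma), and by -0.19 without HF replicate 17. miR-141, the cluster partner of miR-200c and seed partner of miR-200a, ran from 18.4 through 51.5 to 113 in HF and from 34.0 through 76.6 to 103 in LF. The difference of -0.42 ± 0.28 (p = 0.15 from limma) became -0.25 without that bull. For these 3 miRNAs the difference between groups did not pass 0.05 against the spread between bulls.

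miR-205, which regulates ZEB1 and ZEB2 together with the family, ran from 0 through 21.7 to 31.9 in HF and from 7.21 through 17.0 to 136 in LF. The means were 18.7 ± 10.6 in HF and 28.4 ± 38.3 in LF, while the medians were in the opposite order. HF differed from LF by -0.43 ± 0.54 (standard error, p = 0.43 from limma), and by -0.0025 without HF replicate 17. The highest value of miR-205, 136 in LF replicate 18, came from 110 reads, and the other LF bulls lay between 7.21 and 29.7. That bull had 402 of miR-200c and 221 of miR-429, within the range of the other LF bulls.

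miR-375, the islet and epithelial miRNA, ran from 7886 through 11385 to 12787 in HF and from 7704 through 9815 to 13106 in LF. The groups covered nearly the same range. HF bulls lay mostly in its upper part, with 1 of 10 under the median of LF. HF differed from LF by 0.17 ± 0.13 (standard error) on the log2 scale, with p = 0.22 from limma, and by 0.18 without HF replicate 17. Relative to miR-200a within the same bull, the log2 ratio of miR-375 was 0.92 ± 0.35 in HF and 0.47 ± 0.40 in LF, and the ranges overlapped.

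**Figure D2:**
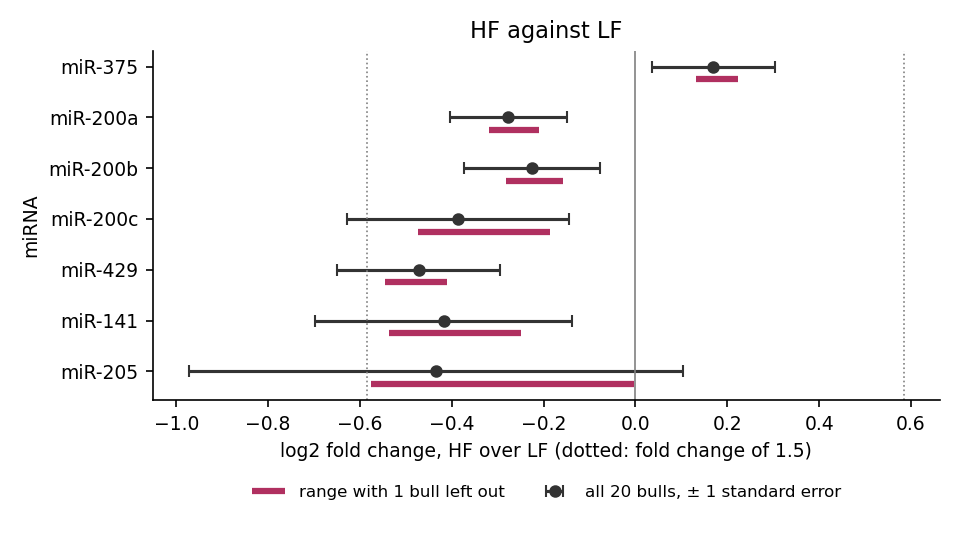
log2 fold change of HF over LF for each miRNA (points, ± 1 standard error from limma), with the range over the 20 fits that left out 1 bull each as a red bar and dotted lines at a fold change of 1.5. The 6 miRNAs other than miR-375 lie below 0, none beyond the dotted lines, and the range of miR-205 reaches -0.0025.

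Summed per bull, the miR-200 family reached a normalized count of 11324 ± 2195 (SD, n = 20), or 1.14% ± 0.26 of the miRNA reads. The sum was 10321 ± 1938 in HF and 12328 ± 2044 in LF. miR-200a alone held 58.1% ± 3.01 of the family and miR-200b 36.3% ± 3.11. miR-200c held 3.11% ± 0.784, miR-429 1.90% ± 0.416 and miR-141 0.599% ± 0.207. miR-200a and miR-200b, which share a cluster but not a seed, thus held most of it.

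The seed groups were closer to each other in level than the clusters were. The seed group of miR-200a and miR-141 summed to 6636 ± 1288 and that of miR-200b, miR-200c and miR-429 to 4689 ± 1010, which is 41.3% ± 2.96 of the family (37.1% to 46.9% over bulls). The seed group of miR-200a was the higher one in 20 of 20 bulls, with a mean log2 ratio of 0.51 ± 0.18 (range 0.18 to 0.76), or 1.42-fold. This ratio was nearly the same in the fertility groups, at 0.49 ± 0.19 in HF and 0.53 ± 0.17 in LF on the log2 scale. The mean was between 0.50 and 0.53 whichever bull was left out.

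The clusters were far from balance. The cluster of miR-200b, miR-200a and miR-429 summed to 10900 ± 2104, which was 96.3% ± 0.867 of the family, and the cluster of miR-200c and miR-141 to 424 ± 127. The mean log2 ratio of the clusters was 4.74 ± 0.40, or 26.8-fold, with a range over bulls of 4.15 (LF replicate 13) to 5.99 (HF replicate 17). It was 4.81 ± 0.51 in HF and 4.68 ± 0.24 in LF, and the mean over all bulls was 4.68 without HF replicate 17, where the smaller cluster rested on few reads.

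Members of the same cluster were not present at equal levels. Within the larger cluster, miR-200a exceeded miR-200b by a log2 ratio of 0.68 ± 0.20 and miR-200b exceeded miR-429 by 4.28 ± 0.32, which is 19.5-fold. Within the smaller cluster, miR-200c exceeded miR-141 by 2.41 ± 0.52. The ratio of miR-200b to miR-429 was 4.41 ± 0.22 in HF and 4.16 ± 0.37 in LF, while that of miR-200c to miR-141 was 2.43 ± 0.58 and 2.39 ± 0.48. Of the seed partners from different clusters, miR-200b exceeded miR-200c by 3.59 ± 0.45, miR-200a exceeded miR-141 by 6.68 ± 0.56 and miR-200c exceeded miR-429 by 0.69 ± 0.43. Of the family ratios computed, only that of miR-200c to miR-429, seed partners from different clusters, changed sign between bulls (range -0.53 to 1.55). The mature forms within a seed group are similar in sequence, and short reads of one can be counted on another, which was not tested.

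**Figure D3:**
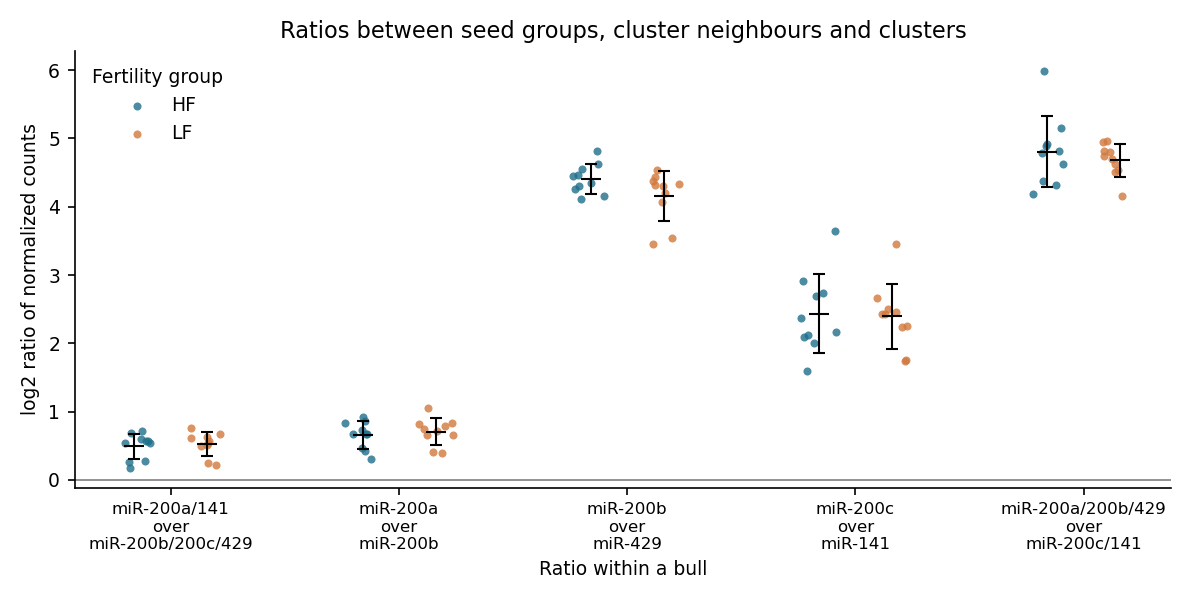
log2 ratio of normalized counts within each bull (points, HF in blue and LF in orange, with the mean ± SD of each group in black) for the seed groups, the neighbours within each cluster, and the clusters. The seed ratio lies between 0.18 and 0.76 in every bull, and the highest cluster ratio, 5.99, is that of HF replicate 17.

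Co-variation asks which of the 7 miRNAs were high and low in the same bulls. It was measured as Spearman's rho over the 20 bulls for each of the 7 with every tested miRNA, 3017 pairs in all, with a two-sided permutation p-value adjusted by the Benjamini-Hochberg method over all of these pairs. The 10 pairs within the miR-200 family had rho between 0.44 and 0.79 with a median of 0.62. Among all 94395 pairs of tested miRNAs the median was 0.0090 and the 95th percentile 0.49. Of these, 6.84% had a rho at least as high as the lowest of the family. Among the 18915 pairs of miRNAs with a mean of at least 50, as the family has, the median was 0.014. The 95th percentile of those pairs was 0.60. Of the 10 family pairs, 9 were positive with an unadjusted permutation p-value under 0.05, beside 5.14% of the 3017 pairs. After adjustment 1 of the 10 had p under 0.05, beside 0.232% of the 3017 pairs (7 positive pairs). Without HF replicate 17 the median rho of the 10 family pairs was 0.55 (0.35 to 0.76). The unadjusted permutation p-value was then 0.105 for miR-141 with miR-200a and 0.057 for miR-141 with miR-200b. The points share their libraries, depth and scaling factors.

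The closest pair was miR-200a and miR-200b, neighbours in the same cluster with different seeds. Spearman's rho was 0.79 (permutation p = 4e-05, adjusted p = 0.024) and Pearson's r 0.81 (permutation p = 4e-05, adjusted p = 0.012). r was 0.69 without the 2 bulls farthest from the median of miR-200a. Within HF bulls rho was 0.90 and within LF bulls 0.65, and with the group means removed it was 0.75 (adjusted permutation p = 0.091). Without HF replicate 17 rho was 0.76 and the adjusted permutation p-value 0.10, and the pair lost its call in 13 of the 20 fits that left out 1 bull. Its direction was the same in all of them, with rho between 0.76 and 0.85.

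By shared cluster and shared seed, the pairs were described without a test. The median rho was 0.62 over the 4 pairs of the same cluster and 0.61 over the 6 pairs of different clusters. These medians were 0.86 and 0.70 within HF bulls, 0.36 and 0.43 within LF bulls, and 0.55 and 0.54 without HF replicate 17. The median rho was 0.59 over the 4 pairs with the same seed and 0.63 over the 6 with different seeds. Without HF replicate 17 the medians by seed were 0.52 and 0.57. miR-200b and miR-429, the only pair that shares both, had a rho of 0.61 (permutation p = 0.0047, adjusted p = 0.34) and an r of 0.67 (permutation p = 0.0014), which was 0.48 without the 2 farthest bulls. miR-200c and miR-141, neighbours in the smaller cluster, had the lowest rho of the family, 0.44 (permutation p = 0.053, adjusted p = 0.57), with an r of 0.67 (permutation p = 0.0027) that became 0.31 without the 2 farthest bulls. miR-200a and miR-200c, which share neither cluster nor seed, had a rho of 0.70 (permutation p = 0.00098, adjusted p = 0.20) and an r of 0.77 (permutation p = 0.00012), or 0.58 without the 2 farthest bulls.

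The relations within the family differed in size between the fertility groups, although this difference was not tested. Within HF bulls the median rho of the 10 family pairs was 0.72 (0.47 to 0.90), and within LF bulls it was 0.42 (-0.16 to 0.71). rho was higher in HF than in LF for 9 of the 10 pairs. Without HF replicate 17 the HF median was 0.61 (0.27 to 0.87) and HF was above LF in 7 of 10. miR-200b and miR-429 had a rho of 0.89 in HF, 0.85 in HF without replicate 17 and -0.02 in LF, where replicates 11 and 13 had the highest miR-429 (297 and 322) beside low miR-200b (3246 and 3733). miR-200b and miR-141 had 0.67 in HF and -0.16 in LF. miR-200a and miR-200c had nearly the same rho in the groups, 0.68 in HF and 0.71 in LF.

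miR-205 and miR-375 were set beside the family in the same way, with no test of how their pairs differ from those of the family. The rho of miR-205 with the 5 family members was between 0.14 and 0.34. By rho, 0 of these 5 pairs were called or had an unadjusted permutation p-value under 0.05. By Pearson's r 3 of 5 had such a p-value, beside 472 of all 3017 pairs, and 0 were called. Within HF bulls the rho of miR-205 reached 0.62 with miR-200a and 0.58 with miR-200b. With library reads removed its rho with the family was 0.35 to 0.54. These values include HF replicate 17, which had 0 reads of miR-205. Without that bull the rho of miR-205 with the family over both groups was -0.0053 to 0.23. Without the 2 bulls farthest from the median of the family member, r was -0.14 to 0.24. The rho of miR-375 with the family was between -0.37 and -0.04, with 0 of 5 pairs under 0.05 by rho or by r, and that of miR-205 with miR-375 was -0.09. The rho of each level with library reads was between -0.33 (miR-429) and 0.23 (miR-375), while Pearson's r with log2 library reads was between -0.13 (miR-429) and 0.40 (miR-200c), both given as descriptions.

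**Figure D4:**
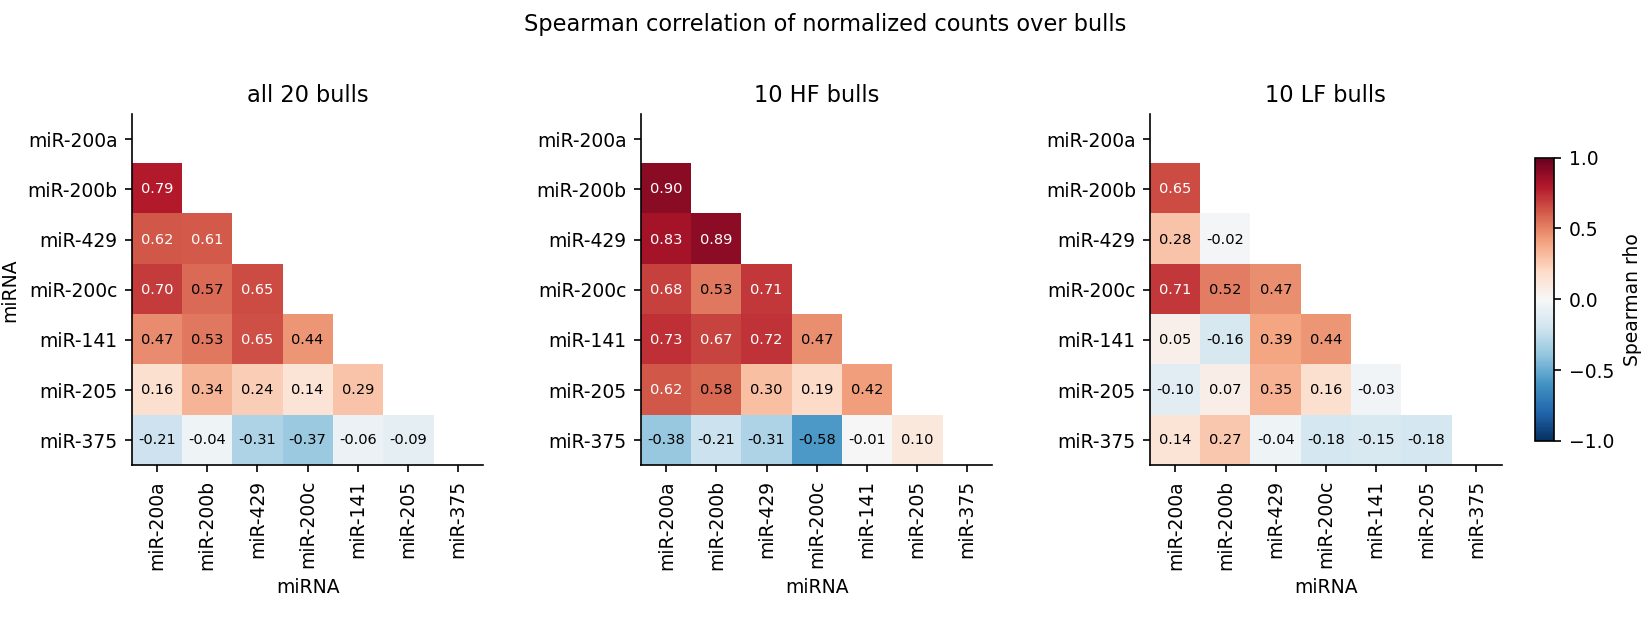
Spearman's rho between each pair of the 7 miRNAs over all 20 bulls (left), the 10 HF bulls (middle) and the 10 LF bulls (right), with red for positive and blue for negative values. The 10 family pairs are positive over all bulls, from 0.44 to 0.79, and range from -0.16 to 0.71 in LF.

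Outside the 7, the miRNAs with the most similar pattern over bulls were named for each member. miR-429 had 4 called pairs, more than any other of the 7. Its rho was 0.83 with miR-10a and 0.80 with miR-10b, whose genes lie in the HOX gene clusters and whose mature forms are nearly identical, 0.79 with miR-345-3p and 0.78 with miR-361. The adjusted permutation p-values of these 4 pairs were 0.024, 0.024, 0.025 and 0.049. With the group means removed, the rho with miR-361 was 0.55 (adjusted permutation p = 0.36), and miR-361 itself had a log2 difference of -1.06 between HF and LF (p = 0.024 and adjusted p = 0.94 from limma). For miR-10a, r was 0.80 (adjusted permutation p = 0.0060) and 0.81 without the 2 bulls farthest from the median of miR-429, and rho was 0.90 in HF and 0.68 in LF. miR-10a had a mean normalized count of 3574 ± 2259 in HF and 4637 ± 1383 in LF, a log2 difference of -0.63 ± 0.34 (standard error, p = 0.072 from limma).

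miR-200c was closest to miR-421, with a rho of 0.85 (adjusted permutation p = 0.024) and an r of 0.95 (adjusted permutation p = 0.0060), which was 0.81 without the 2 farthest bulls. Within LF bulls rho was 0.89 and within HF bulls 0.72. miR-421 was much rarer than miR-200c, at a mean of 23.7, and had 0 reads in HF replicate 17. miR-421 was also among the closest to miR-200a (rho 0.65) and first for miR-200b (rho 0.70), although neither pair was called. The only negative pair called was miR-200c with miR-136, a miRNA of the imprinted DLK1-DIO3 locus, at a rho of -0.79 (adjusted permutation p = 0.047) and an r of -0.82 (adjusted permutation p = 0.012), or -0.71 without the 2 farthest bulls. Within HF rho was -0.87 and within LF -0.89. miR-136 was rare, at a mean of 21.2, and the call depended on the scaling. Without the TMM factor rho was -0.63 (adjusted permutation p = 0.20). With the total taken without miR-100 it was -0.75 (adjusted permutation p = 0.067). miR-141 was closest to the rare miR-12056, with a rho of 0.81 (adjusted permutation p = 0.024) and an r of 0.85 (adjusted permutation p = 0.0060), or 0.82 without the 2 farthest bulls. With the group means removed its rho was 0.74 (adjusted permutation p = 0.12).

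The closest miRNA to miR-200a outside the 7 was miR-148a, an abundant miRNA at a mean of 17944, with a rho of 0.66 (adjusted permutation p = 0.27). For miR-205 it was miR-221, a regulator of the receptor gene KIT, with a rho of 0.70 (adjusted permutation p = 0.20). miR-375 had no close partner: its highest rho was 0.53 with miR-2285cu, followed by 0.51 with miR-100, the most abundant miRNA of the table at a mean of 403777. Of the 3017 pairs, 8 were called in all, and all 8 lost their call without HF replicate 17, with adjusted permutation p-values of 0.075 to 0.13 and rho of 0.74 to 0.82 in size.

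**Figure D5:**
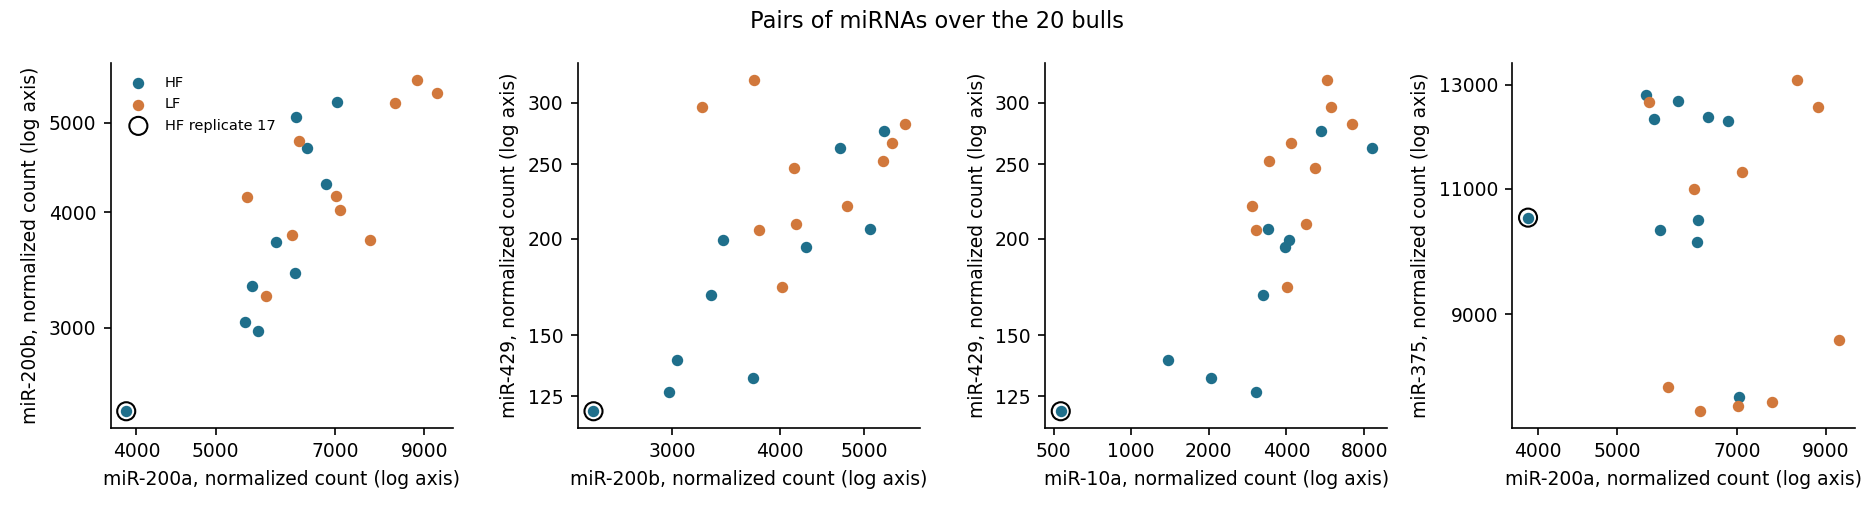
Normalized counts (log axes) of 4 pairs of miRNAs over the 20 bulls, miR-200a with miR-200b, miR-200b with miR-429, miR-10a with miR-429 and miR-200a with miR-375, with HF in blue, LF in orange and HF replicate 17 ringed. The ringed bull is lowest in the first 3 panels (119 for miR-429), and in the second panel 2 LF bulls lie above the others with miR-429 at 297 and 322.

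Other miRNAs linked to epithelia were summarised in the same way. Of 8 names in a list of other epithelial miRNAs, 7 were matched and all 7 passed the filter, with miR-192 the most abundant at a mean of 2303. Their summed level lay between 2454 and 4937 in HF and between 2103 and 5079 in LF. The median log2 fold change of this list was 0.06, beside 0.01 over all tested miRNAs, with 4 of 7 higher in HF and 0 of 7 with an unadjusted p-value under 0.05. Of the 49 pairs of this list with the 7 miRNAs, 0 were called by rho or by r, and the median rho was -0.0015. An unadjusted permutation p-value under 0.05 was found for 5 of the 49 by rho and 12 by r, beside 264 and 472 of all 3017 pairs. miR-194 of this list was the third closest miRNA to miR-205, with a rho of 0.51 (adjusted permutation p = 0.51).

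The lists of other cell types gave 0 called pairs with the 7 as well, of 49 for blood and immune, 56 for stromal, endothelial and muscle and 42 for male germ cell miRNAs. By rho, 3, 2 and 5 of these pairs had an unadjusted permutation p-value under 0.05, and by r 4, 2 and 5. The median rho with the 7 was -0.03, -0.10 and -0.13, beside 0.01 over all 3017 pairs. In HF against LF, 4 of 7 blood and immune, 7 of 8 stromal, endothelial and muscle and 5 of 6 male germ cell miRNAs were higher in HF. Over all tested miRNAs 218 of 435 were. The median log2 fold changes of these lists were 0.14, 0.33 and 0.18. miR-155 of the blood and immune list, lower in HF, was the only list miRNA to meet both criteria, which 9 of 435 tested miRNAs did. miR-486 of the same list was higher in HF by 0.57 (unadjusted p = 0.044 from limma). miR-155 is a miRNA of activated lymphocytes and macrophages. The paper proposes as likely that epithelial cells of the epididymis also express it and pass it to spermatozoa, which was not tested here. The log2 difference of miR-155 was -0.998 ± 0.31 (standard error), with p = 0.0033 and adjusted p = 0.92 from limma. The most abundant of the blood and immune list, miR-142-5p, was at a mean of 92.6, and the most abundant stromal one, miR-143, at 439. Both were below the means of miR-375, miR-200a and miR-200b. miR-143 was above those of miR-200c, miR-429, miR-141 and miR-205, and miR-142-5p above those of miR-141 and miR-205.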

How the data were processed

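The authors trimmed the reads with Cutadapt, kept those of 15 to 28 bases, removed other short RNA species and, with Bowtie and miRDeep2, aligned the rest to ARS-UCD1.2 and assigned them to miRBase mature miRNAs. The deposited signal is the count of each miRNA scaled by the authors to library size and to edgeR's TMM factor. Reads were recovered by dividing each value by that of a single read. Of the values above 0, 95.0% came out whole within 0.01 of a read, including all values of the 7 miRNAs.

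The filter kept a miRNA unless its normalized count was under 1 in 10 or more of the 20 bulls, and 435 remained. HF was compared with LF by limma (version 3.58.1, R 4.3.3, with a variance trend) on log2(normalized count + 1) without covariates, with Benjamini-Hochberg adjustment over the 435. The added 1 shrinks fold changes of rare miRNAs, as in miR-205, at -0.43 here and -0.53 with 0.5 added. Correlations used 100000 permutations of the bulls (scipy 1.17.1, numpy 2.4.6), exact where under 10 bulls were left. As alternatives, edgeR (version 4.0.16) and DESeq2 (version 1.42.0) were run on the recovered reads. They gave log2 differences of -0.27 to -0.30 for miR-141 and -0.26 to -0.28 for miR-200c. Both were smaller in size than with limma (-0.42 and -0.39). For miR-205 they were larger, at -0.47 to -0.52. The tests were checked on simulated data.

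The members and lists were chosen with earlier results of these data known. Named are the 7 miRNAs, the 3 tested miRNAs most like each, and of each list the most abundant miRNA and those called. miR-136, miR-361 and the reads of single bulls were singled out after their values were seen, since they belong to called pairs or to libraries that stand apart. Other miRNAs with the seed of a member were to be named as well, but sequences were not used here. The ARS-UCD2.0 annotation served only for gene order, and all 7 matched. Counting error is the root mean square of the Poisson error over the libraries with a read. The mRNA libraries and the RT-PCR tests for other cell types were not analysed here.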

Additional observations from a re-analysis of the deposited data

Results flagged for a closer look

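With 18 groups of 10 bulls looked at, 3 held a bull farther from the others than Dixon's critical value, where chance gives about 1 in 20, or 0.9 groups. In miR-200a, HF replicate 17 was lowest at 3888, the other HF bulls lay between 5427 and 7048, and the gap was 0.487 of the range. In miR-205, LF replicate 18 was highest at 136, from 110 reads, the other LF bulls lay between 7.21 and 29.7, and the gap was 0.825 of the range. In the log2 ratio of the cluster of miR-200b to that of miR-200c, HF replicate 17 was highest at 5.99, the other HF bulls lay between 4.18 and 5.15, and the gap was 0.468 of the range.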

How the results depend on the processing

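The number of miRNAs called between HF and LF was 9. It was 4 with a pseudocount of 5, 15 with no filter, 4 with at least 1 in every bull, and 7 to 15 with 1 bull left out (15 without HF replicate 6, and 14 without LF replicate 1, 11 or 13). No setting called any of the 7 miRNAs. miR-429 kept its unadjusted p-value under 0.05 in 9 of 9 other settings and in 20 of 20 fits without 1 bull, and miR-200a in 8 of 9 and 10 of 20. The direction of all 7 was the same in every setting run, except that miR-205 was not tested with at least 1 in every bull.

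The number of pairs of the 7 with any tested miRNA called was 8. It was 17 without the TMM factor, 5 with the group means removed, 19 with log2 library reads removed, 20 with Pearson's r, and 0 in HF alone, in LF alone and in HF without replicate 17, which was chosen after seeing the data. With 1 bull left out it was 0 to 11, with 0 without HF replicate 6 or 17 or LF replicate 7, 1 without HF replicate 14 or LF replicate 18, 2 without HF replicate 12, 15 or 16, 3 without LF replicate 19, 5 without HF replicate 2 or 3 or LF replicate 4, and 11 without LF replicate 11. Within the 7, the single called pair became 5, 0, 3 and 4 in the first 4 settings, 0 in the last 3, and 0 to 2 with 1 bull left out, with 2 without LF replicate 11. In LF alone the rho of miR-200b with miR-141 was -0.164 and with miR-429 -0.0182. A fit to 10 bulls has fewer samples, and the cause of the other changes was not tested.

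The mean seed ratio was 0.51 and the mean cluster ratio 4.74 on recovered reads as well, which was fixed in advance. All values of a library are divided by the same number there, so a ratio within a bull cannot change. Depth limits miR-205 most, then miR-141. Replicate numbers are not shared between HF and LF. No paired analysis was possible because no bull number occurs in both groups.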
